A study of Mus musculus with 56 samples.

Results

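Histone acetylation is set by enzymes that add acetyl groups to lysines, by enzymes that remove them, and by proteins that bind the acetylated lysine. Expression of 37 genes of this machinery, out of the 47937 gene rows counted, was examined in mouse CD4 T cells polarized in vitro. The genes were chosen by family membership, with earlier results of these data known. The set held 17 histone acetyltransferase genes, 11 zinc-dependent deacetylase (HDAC) genes, 7 sirtuin genes and 2 genes for BET (bromodomain and extraterminal) readers.

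Acetyltransferases transfer the acetyl group of acetyl-CoA to histone tails and are found at active promoters and enhancers. The p300 and CBP pair, the GNAT family and the MYST family differ in the lysines they modify and in the complexes that carry them, and the nuclear receptor coactivators recruit p300 and CBP to ligand-bound receptors. Class I HDACs work in corepressor complexes, class IIa HDACs leave the nucleus when they are phosphorylated after T cell receptor stimulation, and class IIb HDACs include a tubulin deacetylase. Sirtuins use NAD as a cosubstrate and act in the nucleus, cytosol or mitochondria. BET proteins read acetylated histones through paired bromodomains and help to recruit the transcription machinery. In T cells, HDAC7 is abundant during thymocyte development and deacetylases restrain cytokine genes outside their lineage.

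CD4 T cells of C57BL/6 mouse spleen and lymph nodes were purified by negative selection, which is meant to remove other cell types, and are described as naive in the study's methods, though not in the labels. RNA was sequenced on day 4 of polarization to TH1, TH2, TH17 or Treg conditions. The ODC_KO groups came from Odc flox/flox mice and the DOHH_KO groups from Dohh flox/flox mice, both carrying Cre under the CD4 promoter, and the ODC_WT and DOHH_WT groups from control mice that lack Cre according to the study's methods. ODC makes the polyamine putrescine and DOHH completes hypusine, a modified lysine of the translation factor eIF5A, so the comparison asks what loss of either step does to the expression of these enzymes in each subset. The Odc table held 31 libraries, 4 in each group but 3 in ODC_KO TH2, whose replicate 1 was not analysed here, and the Dohh table held 24, 3 in each group. All groups were activated with antibodies to CD3 and CD28, and whether replicates are separate mice was not stated, so p-values measure the spread between these libraries. Below, Odc-/- and Dohh-/- stand for libraries labelled ODC_KO and DOHH_KO, WT for the control libraries of the same table, and "Treg" for cells cultured under Treg conditions.

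Library totals were 5905374 to 9145214 counts in the Odc table and 6572148 to 12576933 in the Dohh table. In counts per 1000000 (CPM) of the unscaled totals, a floor of 3 counts corresponded to 0.328 to 0.508 and 0.239 to 0.456 CPM. Values in CPM below are per TMM-scaled library size. Counts over the whole gene did not check the deletion of the floxed exons: Odc1 in Odc-/- cells changed by 0.26, -0.20, -0.40 and 0.20 log2 units in TH1, TH2, TH17 and Treg, and Dohh in Dohh-/- cells by 1.43, 1.10, 0.41 and 1.15. The Dohh annotation overlaps other genes on the same strand over 47.5% of its exon bases, so its reads are less certain. The labelled cell type was checked against 10 T cell identity genes, among them Cd3e, Lck and Cd4. They were detected in all groups, summing to 2983 to 5213 CPM in WT against 2408 to 4361 CPM in Odc-/- libraries and 4596 to 5321 CPM in WT against 2043 to 3884 CPM in Dohh-/- libraries, with 0 to 4 called lower in Odc-/- and 4 in each Dohh-/- subset, and medians of -0.95 to -0.075 in Odc-/- and -0.74 to -0.32 in Dohh-/- subsets on the log2 scale. The mean of Cd4, the coreceptor of helper T cells, was 883, 696, 659 and 835 CPM in WT and 463, 347, 365 and 511 CPM in Odc-/- TH1, TH2, TH17 and Treg, and 842, 702, 814 and 941 CPM in WT and 36.1, 57.7, 61.3 and 37.6 CPM in Dohh-/- cells. Cd4 was lower past the adjusted p in all 8 comparisons. Cd8a, its counterpart on cytotoxic T cells, had 8.83, 3.94, 13.8 and 15.1 CPM in WT and 11.2, 1.64, 35.5 and 165 CPM in Odc-/- TH1, TH2, TH17 and Treg, and 4.72, 3.46, 6.27 and 8.22 CPM in WT and 7.74, 13.7, 114 and 242 CPM in Dohh-/- cells. It was higher past the adjusted p in Odc-/- TH17 and Treg and in Dohh-/- TH2, TH17 and Treg. The TH1, TH2 and Treg labels were checked in WT libraries by the summed level of their own markers. Markers of TH1 (Tbx21, Ifng and Cxcr3) summed to 654 to 2141 CPM in TH1 against 18 to 51 CPM in the other WT subsets of the Odc and 287 to 372 CPM in TH1 against 10.6 to 26.4 CPM in the other WT subsets of the Dohh table. Markers of TH2 (Gata3, Il4, Il5 and Il13) gave 652 to 1013 CPM in TH2 against 11.4 to 59.3 CPM in the other WT subsets and 501 to 558 CPM in TH2 against 14.5 to 61.6 CPM in the other WT subsets. For the TH17 label, the cytokine gene Il17a had a mean of 0.873, 6.36, 339 and 0.259 CPM in WT TH1, TH2, TH17 and Treg of the Odc table and 1.64, 5.09, 29.5 and 0.432 CPM of the Dohh table. Treg markers (Foxp3, Il2ra and Ikzf2) did not stand apart as a sum, at 2924 to 3816 CPM in Treg against 2929 to 4577 CPM in the other WT subsets and 1631 to 2042 CPM in Treg against 1167 to 2746 CPM in the other WT subsets, but Foxp3 alone, the Treg lineage factor, had a mean of 6.26, 3.51, 17.3 and 478 CPM in WT TH1, TH2, TH17 and Treg of the Odc table and 7.59, 2.66, 44.6 and 576 CPM of the Dohh table. TH1 markers were called higher for 1 to 3 of 3 in Odc-/- and 2 to 3 of 3 in Dohh-/- subsets, and TH2 markers for 0 to 3 and 1 to 2 of 4. Of each of these lists, 0 were called lower in Odc-/- and 0 to 1 in Dohh-/- subsets. Il17a had 2.55, 1.5, 107 and 2.09 CPM in Odc-/- TH1, TH2, TH17 and Treg, called lower in TH2 and TH17 and higher in Treg, and 12.5, 81.6, 222 and 94.5 CPM in Dohh-/- subsets, called higher in all 4. Il17a does not stand for all TH17 markers. Of a list of 3, 0 to 1 were called higher and 0 to 3 lower in Odc-/- subsets. In each Dohh-/- subset 1 to 2 of that list were called higher and 1 was called lower. Of the 3 Treg markers, 0 to 1 were called higher and 0 lower in Odc-/- subsets, and 1 and 0 to 2 in Dohh-/- subsets. Foxp3 in Treg had 408 CPM in Odc-/- and 106 CPM in Dohh-/- libraries, called lower in the latter. Markers of other cells were summed per library. Gamma-delta T cell markers, of which 5 to 6 of 6 were called higher in each comparison, summed to 16 to 72 CPM in WT against 142 to 702 CPM in Odc-/- libraries and 27.2 to 67 CPM in WT against 711 to 1544 CPM in Dohh-/- libraries. Basophil or mast cell markers, with 6 to 8 of 8 called higher, summed to 5.07 to 48.3 CPM in WT against 25.1 to 335 CPM in Odc-/- libraries and 3.79 to 25.3 CPM in WT against 67.6 to 1236 CPM in Dohh-/- libraries, and Ms4a2 and Prss34 had 3 counts or fewer in every WT library of Dohh mice. Myeloid markers, with 1 to 6 of 6 tested called higher, summed to 2.13 to 40.1 CPM in WT against 5.56 to 361 CPM in Odc-/- libraries and 1.10 to 22.4 CPM in WT against 3.47 to 4727 CPM in Dohh-/- libraries, with Itgam, which overlaps another gene over 68.7% of its exon bases, at 0 throughout the Dohh table. CD8 T or NK cell markers summed to 16 to 91.6 CPM in WT against 26.4 to 557 CPM in Odc-/- libraries and 23.9 to 41.3 CPM in WT against 59.3 to 688 CPM in Dohh-/- libraries. Of these, 2 to 5 of 6 were called higher in Odc-/- subsets and 3 to 4 of 5 tested in Dohh-/- subsets, where Cd8b1 was called lower in TH1 and TH2. B cell markers, with 1 to 6 of 6 called higher in Odc-/- and 0 to 3 of 5 tested in Dohh-/- subsets, summed to 3.41 to 101 CPM in WT against 13.5 to 503 CPM in Odc-/- libraries and 5.58 to 63.9 CPM in WT against 5.72 to 57.9 CPM in Dohh-/- libraries. Erythroid markers summed to 0 to 3.07 CPM in WT against 0 to 2.83 CPM in Odc-/- libraries, with 1 of 6 tested, and 0 to 1.36 CPM in WT against 2.31 to 56.4 CPM in Dohh-/- libraries, where 3 were tested and 2 to 3 called higher. The part of these marker changes in the results that follow was not tested. In bulk RNA, fewer cells of a type and less RNA per cell cannot be told apart.

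Promoter sequence is shown for genes that moved together: Kat6b, Hdac5, Hdac7 and Hdac11, lower in both mutants in every subset, and Hat1, the gene called higher. Each sequence is the 250 bases before a RefSeq transcription start in GRCm38.p6, read 5′ to 3′ on the gene's strand, and capitals mark matches to the motifs searched. They lie as follows: Kat6b at chr14:21499520-21499769 on the plus strand, Hdac5 at chr11:102230173-102230422 on the minus strand, Hdac7 at chr15:97844503-97844752 on the minus strand, Hdac11 at chr6:91156565-91156814 on the plus strand and Hat1 at chr2:71389010-71389259 on the plus strand.
Kat6b: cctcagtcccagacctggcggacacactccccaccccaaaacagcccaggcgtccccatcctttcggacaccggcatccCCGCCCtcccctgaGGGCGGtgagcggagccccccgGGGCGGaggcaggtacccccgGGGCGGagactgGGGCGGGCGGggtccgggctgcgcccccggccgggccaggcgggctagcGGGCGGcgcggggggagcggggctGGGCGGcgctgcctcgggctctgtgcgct
Hdac5: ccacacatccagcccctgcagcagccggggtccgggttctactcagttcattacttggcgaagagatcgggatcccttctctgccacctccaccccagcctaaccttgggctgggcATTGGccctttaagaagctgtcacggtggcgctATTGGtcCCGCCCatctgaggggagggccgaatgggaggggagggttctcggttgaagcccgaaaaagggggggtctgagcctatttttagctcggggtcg
Hdac7: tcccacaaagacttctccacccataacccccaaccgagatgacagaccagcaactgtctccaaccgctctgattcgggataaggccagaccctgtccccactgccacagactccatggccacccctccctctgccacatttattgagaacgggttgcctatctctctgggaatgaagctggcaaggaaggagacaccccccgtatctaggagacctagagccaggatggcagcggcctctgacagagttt
Hdac11: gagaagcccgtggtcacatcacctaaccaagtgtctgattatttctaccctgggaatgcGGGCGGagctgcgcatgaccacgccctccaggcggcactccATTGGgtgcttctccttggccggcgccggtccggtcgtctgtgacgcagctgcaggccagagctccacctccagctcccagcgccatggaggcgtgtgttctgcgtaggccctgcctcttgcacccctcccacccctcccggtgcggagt
Hat1: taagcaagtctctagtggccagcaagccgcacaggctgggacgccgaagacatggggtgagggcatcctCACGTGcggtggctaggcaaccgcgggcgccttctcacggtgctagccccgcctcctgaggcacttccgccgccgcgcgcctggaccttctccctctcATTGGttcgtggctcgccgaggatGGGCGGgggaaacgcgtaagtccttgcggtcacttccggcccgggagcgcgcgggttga

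The 37 genes lie on 18 mouse chromosomes, with 3 on the X. In GRCm38 the annotated spans of the genes described most are Kat6b chr14:21481434-21672478 (plus strand), Ncoa3 chr2:165992636-166073242 (plus strand), Hdac5 chr11:102194432-102230166 (minus strand), Hdac7 chr15:97792664-97844502 (minus strand), Hdac11 chr6:91156665-91174692 (plus strand) and Hat1 chr2:71388958-71441622 (plus strand). Motifs searched on both strands were the E-box CACGTG, the CCAAT box CCAAT, the GC box GGGCGG, the FOXO motif GTAAACA and the RUNX motif TGTGGT. The Kat6b window held 8 GC boxes, of which a pair overlapped, and no other motif, at 78.8% GC. Its start lies 18336 bases from the start of the annotated gene, and RefSeq holds 2 starts for Kat6b. The Hdac5 window held 2 CCAAT boxes and 1 GC box, and the Hdac11 window 1 CCAAT box and 1 GC box. None of these letters occurred in the Hdac7 window shown, which is that of 1 of 4 RefSeq starts. The Hat1 window held 1 E-box, 1 CCAAT box and 1 GC box. The RefSeq start used for Hat1 lies 302 bases inside the annotated gene, so the whole Hat1 window lies within that gene. The start used for Hdac11 lies 150 bases inside its gene, so part of the Hdac11 window does too. Over windows of the same length, the GC box occurred in 32.7% of 32851 promoters and 62.2% of 45 promoters of the 31 acetylation genes with an entry, whose median GC content was 62% against 52.4%. The CCAAT box occurred in 33.8% of all and 35.6% of the set, the E-box in 6.02% of all and 6.67% of the set, the FOXO motif in 3.17% of all and 4.44% of the set and the RUNX motif in 14% of all and 15.6% of the set. A match is a description of letters and not a shown binding site.

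Over the 8 comparisons with WT cells of the same subset, these genes were lower more often than higher. A gene is called here when its fold change was above 2 and its p-value, taken from the quasi-likelihood fit of edgeR and adjusted by Benjamini-Hochberg over all genes tested, was below 0.05. Of the 37 genes, 36 passed the low-count filter in each table, with Hdac9 left out of the Odc fit and Naa60 out of the Dohh fit. In Odc-/- TH1 cells, 5 (13.9%) were called lower and 0 higher (all genes, 11.3% and 10.2%), and 14 and 11 passed the adjusted p alone (all genes, 27.7% and 29.1%). In Odc-/- TH2 cells, 5 (13.9%) were called lower and 0 higher (all genes, 13.6% and 11.5%), and 13 and 9 passed the adjusted p alone (all genes, 29.3% and 29.9%). In Odc-/- TH17 cells, 2 (5.56%) were called lower and 0 higher (all genes, 7.21% and 8.35%), and 16 and 3 passed the adjusted p alone (all genes, 22.2% and 25.6%). In Odc-/- Treg, 5 (13.9%) were called lower and 0 higher (all genes, 10.1% and 13.9%), and 14 and 5 passed the adjusted p alone (all genes, 26.9% and 32.9%). The share called lower in Odc-/- cells was therefore near that of all genes, and no member was called higher there. At an unadjusted p below 0.05 without the fold limit, 11, 10, 4 and 5 were higher in these subsets, and DESeq2 also called 0 higher in each. In Dohh-/- TH1 cells, 8 (22.2%) were called lower and 1 higher (all genes, 14.2% and 14.8%), and 14 and 4 passed the adjusted p alone (all genes, 24.1% and 25.9%). In Dohh-/- TH2 cells, 7 (19.4%) were called lower and 0 higher (all genes, 11.6% and 14.3%), and 15 and 5 passed the adjusted p alone (all genes, 21.5% and 23.8%). In Dohh-/- TH17 cells, 10 (27.8%) were called lower and 1 higher (all genes, 14.1% and 17.3%), and 20 and 2 passed the adjusted p alone (all genes, 24.9% and 27%). In Dohh-/- Treg, 8 (22.2%) were called lower and 1 higher (all genes, 15.2% and 17.5%), and 13 and 4 passed the adjusted p alone (all genes, 25% and 28.4%). Here the called-lower share of the set lay above the share of all genes in each subset and the called-higher share below it. In Dohh-/- TH2 cells, 5 members were higher at an unadjusted p below 0.05 and DESeq2 called 0.

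**Figure D1:**
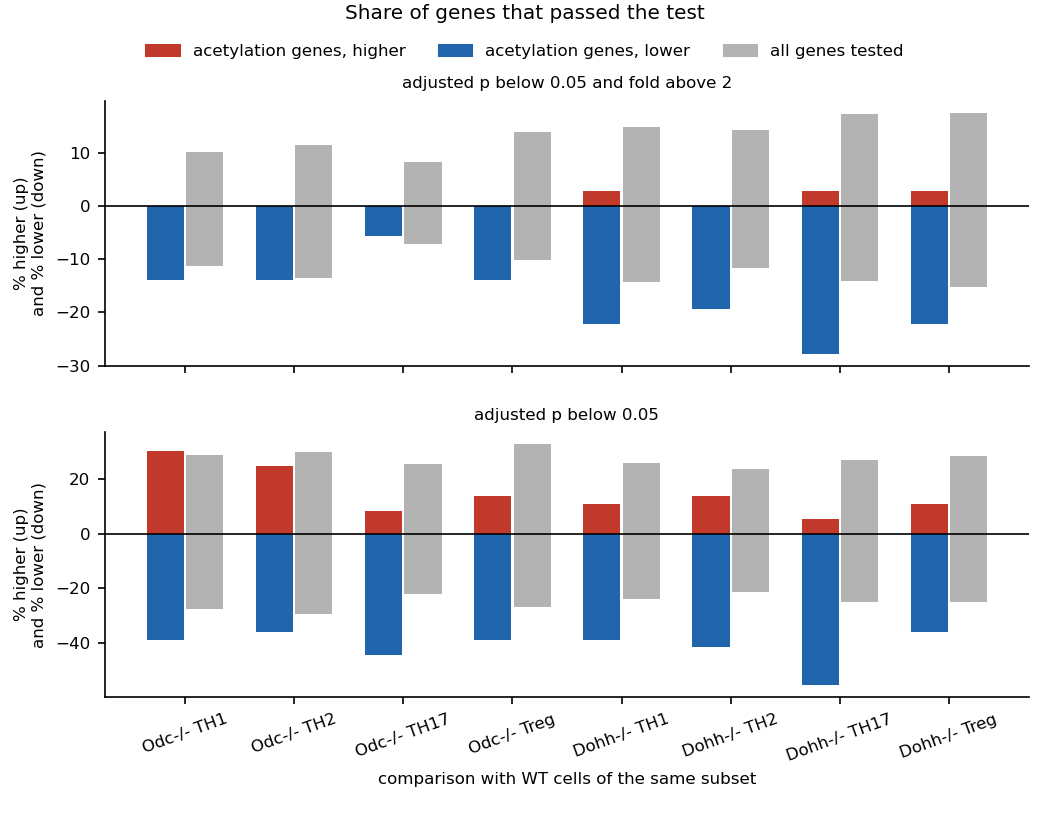
Percentage of the acetylation genes tested (red, higher; blue, lower) and of all genes tested (grey) in each comparison with WT cells, upward for higher and downward for lower, with the fold limit in the upper panel and without it in the lower panel. In Dohh-/- cells the blue bars of the upper panel reach below the grey ones in all 4 subsets, and in Odc-/- cells no red bar is seen in the upper panel.

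Across the 288 gene comparisons tested, 50 were called lower and 3 higher, and 119 and 43 passed the adjusted p alone. Lower calls were made in 24 of 84 HDAC, 22 of 132 acetyltransferase, 4 of 56 sirtuin and 0 of 16 BET comparisons. By mutant the HDAC share was 25% in Odc-/- and 31.8% in Dohh-/- cells and the acetyltransferase share 7.35% and 26.6%, where 7.21% to 13.6% and 11.6% to 15.2% of all genes were called lower in the subsets. The lower calls came from 13 genes, while all 3 higher calls were Hat1. A gene can count once in each subset, so the shares above are of comparisons and not of genes. In Odc-/- cells the HDAC calls were all Hdac5, Hdac7 or Hdac11, and the acetyltransferase calls all Kat6b or Ncoa3. In Dohh-/- cells the same HDAC genes were called lower, with Hdac4 in TH17 and Hdac8 in Treg besides. Of these 53 calls, 43 were kept under every alternative in which the gene was tested and 10 ended under at least 1. Calls that ended at the 2-fold limit, with their log2 fold change, were Hat1 in Dohh-/- TH1 (0.983 without Dohh-/- replicate 2), Sirt5 in Dohh-/- TH1 (-0.982 without WT replicate 1), Kat2b in Dohh-/- TH2 (-0.993 without Dohh-/- and -0.967 without WT replicate 3) and Ncoa2 in Dohh-/- TH2 (-0.986 without WT replicate 3). Without Dohh-/- replicate 3, the same held for Sirt6 in TH17 (-0.849) and for Hdac8 and Hdac5 in Treg (-0.999 and -0.780). The other 3, Ncoa3 and Hdac11 in Odc-/- Treg and Hdac7 in Dohh-/- TH1, are described with these genes. Hdac11 was not tested in any comparison with a mean count of at least 50, nor in Odc-/- TH17 and Treg when only the 2 groups compared were fitted. Median log2 fold changes of the set were -0.12, -0.0039, -0.23 and -0.18 in Odc-/- TH1, TH2, TH17 and Treg, where those of all genes were 0.024, -0.0019, 0.048 and 0.073. In Dohh-/- cells they were -0.44, -0.36, -0.54 and -0.34, where those of all genes were 0.011, 0.018, 0.013 and 0.025. Kat6b, Ncoa3, Hdac5, Hdac7 and Hdac11 were lower past the adjusted p in all 8 comparisons, and Kat6b and Hdac11 were called lower in each of them. Naa60 was higher in all 4 comparisons in which it was tested. Kat5 and Hdac9 passed in none, and Hdac10 and Brd3 passed in both directions, higher in Odc-/- and lower in Dohh-/- cells. The 4 subsets of a table are not independent repeats, since libraries with the same number may come from the same mouse.

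**Figure D2:**
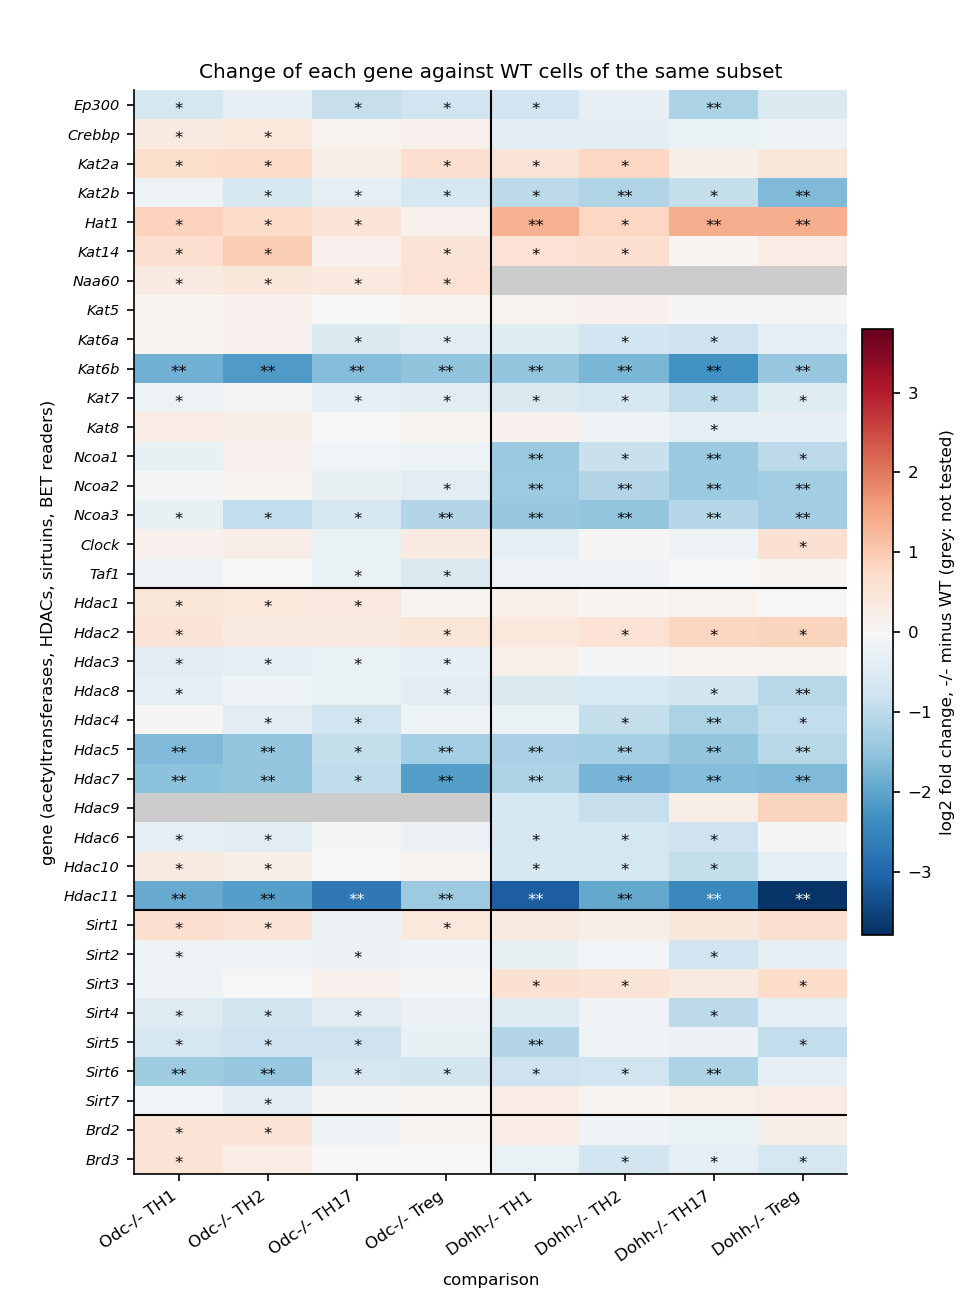
Log2 fold change of each of the 37 genes (rows, in the order acetyltransferases, HDACs, sirtuins, BET readers) against WT cells in the 8 comparisons (columns), with blue for lower, red for higher and grey for not tested. A star marks an adjusted p below 0.05 and 2 stars a fold change above 2 as well. Kat6b, Hdac5, Hdac7 and Hdac11 are blue in every column and Hat1 is red in every column.

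The MYST family had 1 member that fell in every comparison. Kat6b, a catalytic subunit of the MOZ/MORF complexes that acetylate histone H3, fell by more than 2-fold in all 8. In Odc TH1 cultures it measured 97.5, 93.3, 94.5 and 64.8 CPM in WT and 37.8, 16.7, 20.1 and 25.1 in Odc-/- libraries. TH2 cultures of that table held 149, 131, 127 and 86.4 CPM in WT and 22.9, 33.4 and 27.5 in Odc-/- libraries. TH17 cultures held 158, 156, 159.5 and 118 CPM in WT and 75.5, 32.5, 37.4 and 42.3 in Odc-/- libraries. No Odc-/- library reached the lowest WT library of its subset, and in TH1 and TH17 replicate 1 was the Odc-/- library nearest WT. Odc Treg cultures held 69.5, 58.4, 69.4 and 46.6 CPM in WT and 23.7, 25.8, 13.7 and 21.6 in Odc-/- libraries. In the Dohh table, TH1 cultures held 25.4, 23.6 and 21.3 CPM in WT and 8.79, 6.79 and 9.05 in Dohh-/- libraries. Dohh table TH2 cultures held 33.2, 31.5 and 38.5 CPM in WT and 12.7, 11.3 and 7.10 in Dohh-/- libraries. The WT and mutant ranges again lay apart. Dohh TH17 cultures held 43.8, 40.6 and 44.2 CPM in WT and 9.23, 8.28 and 8.76 in Dohh-/- libraries. Dohh Treg cultures held 22.5, 16.2 and 17.1 CPM in WT and 7.95, 7.88 and 4.64 in Dohh-/- libraries. Dohh-/- libraries were below WT libraries in each subset. Log2 fold changes of Kat6b in Odc-/- cells were -1.82 (SE 0.25, adjusted p = 3.80e-06) in TH1, -2.14 (SE 0.28, adjusted p = 1.05e-06) in TH2, -1.66 (SE 0.24, adjusted p = 1.10e-05) in TH17 and -1.52 (SE 0.25, adjusted p = 1.29e-05) in Treg. Those in Dohh-/- cells were -1.51 (SE 0.22, adjusted p = 1.25e-05) in TH1, -1.73 (SE 0.21, adjusted p = 2.54e-06) in TH2, -2.29 (SE 0.22, adjusted p = 7.39e-08) in TH17 and -1.45 (SE 0.22, adjusted p = 1.44e-05) in Treg. Without Odc-/- TH1 replicate 1 the TH1 value was -2.10.

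Other MYST enzymes moved less and none was called. Kat7, the HBO1 subunit that acetylates histone H3 and H4, was lower in Odc-/- TH1, TH17 and Treg, with log2 fold changes of -0.19 (SE 0.083, adjusted p = 0.0482), -0.36 (SE 0.082, adjusted p = 9.72e-04) and -0.42 (SE 0.082, adjusted p = 8.45e-05), while its TH2 value was -0.073 (SE 0.089, adjusted p = 0.494). In Dohh-/- cells Kat7 fell in all 4 subsets, with log2 fold changes of -0.56 in TH1, -0.64 in TH2, -0.96 in TH17 and -0.48 in Treg. The largest of these, in TH17, took it from 110.1 ± 3.31 CPM (n = 3) to 56.5 ± 16.1 CPM (n = 3), and the libraries did not overlap. Kat6a, the paralog of Kat6b, fell in Odc-/- TH17 (-0.56, SE 0.15, adjusted p = 0.00324) and Treg (-0.44, SE 0.15, adjusted p = 0.0119) and in Dohh-/- TH2 (-0.73, SE 0.22, adjusted p = 0.0116) and TH17 (-0.77, SE 0.22, adjusted p = 0.00654). Its values in Odc-/- TH1 and TH2 were 0.069 and 0.16. Kat8, the MOF enzyme that acetylates histone H4, passed in Dohh-/- TH17 alone (-0.37, SE 0.14, adjusted p = 0.036), a pass that was lost under 9 of 12 alternatives. Kat5, the TIP60 enzyme, lay between -0.082 and 0.17 and passed in none. With 1 library left out, further passes were lost, namely the Odc-/- TH1 pass of Kat7 without Odc-/- replicate 1, 2, 3 or 4 or WT replicate 1, 2 or 3, the Dohh-/- TH1 pass of Kat7 without Dohh-/- replicate 2 or WT replicate 1 or 2, the Dohh-/- Treg pass of Kat7 without Dohh-/- replicate 1, the Odc-/- Treg pass of Kat6a without Odc-/- replicate 3 and the Dohh-/- TH17 pass of Kat8 without Dohh-/- replicate 2 or 3 or WT replicate 1 or 3.

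The GNAT family was divided: in the comparisons that passed, Hat1, Kat2a, Kat14 and Naa60 were higher and Kat2b lower. Hat1 encodes the enzyme that acetylates newly made histone H4 before it is deposited on DNA. In Dohh table TH1 cultures Hat1 measured 44.6, 50.7 and 47 CPM in WT and 122, 169 and 65.5 in Dohh-/- libraries. The corresponding TH17 cultures held 36, 41 and 36.5 CPM in WT and 90.8, 93.2 and 112 in Dohh-/- libraries. Hat1 in Treg cultures was 48.7, 51.5 and 42.5 CPM in WT and 121, 113 and 138 in Dohh-/- libraries. Every Dohh-/- library lay above every WT library, and TH1 replicate 3 lay closest to WT. In Dohh TH2 cultures Hat1 measured 50.7, 67.4 and 66.1 CPM in WT and 87.1, 107 and 124 in Dohh-/- libraries. Log2 fold changes in Dohh-/- cells were 1.32 (SE 0.23, adjusted p = 7.32e-05) in TH1, 0.79 (SE 0.22, adjusted p = 0.00674) in TH2, 1.38 (SE 0.23, adjusted p = 4.85e-05) in TH17 and 1.38 (SE 0.23, adjusted p = 3.69e-05) in Treg. In Odc-/- cells they were 0.89 (SE 0.14, adjusted p = 1.89e-05) in TH1, 0.69 (SE 0.15, adjusted p = 3.99e-04) in TH2, 0.52 (SE 0.14, adjusted p = 0.00423) in TH17 and 0.16 (SE 0.14, adjusted p = 0.338) in Treg. Odc table TH1 libraries held 61.1, 58.9, 58.9 and 76.5 CPM in WT and 86.8, 124, 133 and 129 in Odc-/- libraries. Odc table Treg libraries held 80.9, 91.2, 74.4 and 116 CPM in WT and 91.4, 102, 117 and 94.4 in Odc-/- libraries. Odc WT replicate 4 was the highest WT library in both, and in Treg the groups overlapped.

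Kat2a, the GCN5 subunit of SAGA, rose in Odc-/- TH1 (0.68, SE 0.16, adjusted p = 7.35e-04), TH2 (0.69, SE 0.17, adjusted p = 0.00108) and Treg (0.64, SE 0.16, adjusted p = 9.48e-04) and in Dohh-/- TH1 (0.49, SE 0.20, adjusted p = 0.0405) and TH2 (0.78, SE 0.20, adjusted p = 0.00305). Its paralog Kat2b, the PCAF enzyme that sits in the same kind of complex, went the other way. In Dohh Treg cultures Kat2b measured 60.1, 48.5 and 67.2 CPM in WT and 21, 18.1 and 16.5 in Dohh-/- libraries. TH2 cultures of that table held 37.1, 34.3 and 50.6 CPM in WT and 19.5, 21.3 and 14.1 in Dohh-/- libraries. The groups did not overlap. In Dohh-/- cells Kat2b had log2 fold changes of -1.0 (SE 0.25, adjusted p = 0.00242) in TH1, -1.15 (SE 0.25, adjusted p = 8.19e-04) in TH2, -0.89 (SE 0.24, adjusted p = 0.00435) in TH17 and -1.66 (SE 0.25, adjusted p = 1.26e-05) in Treg, and the TH1 value lay just short of the 2-fold limit. In Odc-/- cells it fell in TH2, TH17 and Treg, with log2 fold changes of -0.60 (SE 0.16, adjusted p = 0.00212), -0.38 (SE 0.14, adjusted p = 0.0268) and -0.66 (SE 0.14, adjusted p = 2.55e-04), and had -0.18 (SE 0.15, adjusted p = 0.299) in TH1. The TH17 pass of Kat2b was lost without Odc-/- replicate 1 or 3 or WT replicate 1. Kat14, the ATAC subunit, rose in Odc-/- TH1, TH2 and Treg (0.64, 0.93 and 0.50) and in Dohh-/- TH1 and TH2 (0.54 and 0.65). The Kat14 annotation overlaps another gene on the same strand over 14.8% of its exon bases, so its reads are less certain. Naa60, an acetyltransferase of the Golgi that also acts on histone H4, rose slightly in Odc-/- cells, by 0.35 (SE 0.10, adjusted p = 0.00332) in TH1, 0.43 (SE 0.10, adjusted p = 0.00101) in TH2, 0.37 (SE 0.10, adjusted p = 0.00265) in TH17 and 0.55 (SE 0.10, adjusted p = 2.59e-05) in Treg. Its annotation overlaps other genes over 26.3% of its exon bases, 13.2% on the same strand, so its reads are less certain too. It was not tested in the Dohh table, where every library held 0 to 3 counts, against 318 to 805 counts in the Odc table. The 2 tables may have been counted differently, which was not tested. When only the 2 groups compared were fitted, the Dohh-/- TH1 passes of Kat2a, Kat2b and Kat14 (adjusted p = 0.176, 0.0529 and 0.187) were lost. So was the Odc-/- Treg pass of Kat14 (adjusted p = 0.0668). Passes that 1 library decided were the Dohh-/- TH1 pass of Kat2a without Dohh-/- replicate 1 or 2 or WT replicate 1 or 3, the Dohh-/- TH1 pass of Kat14 without Dohh-/- replicate 1 or 2 or WT replicate 1 or 3 and the Dohh-/- TH2 pass of Kat14 without WT replicate 2.

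The p300 and CBP genes, whose products acetylate H3 at enhancers, did not move alike. Ep300 fell in Odc-/- TH1, TH17 and Treg and in Dohh-/- TH1 and TH17. In Dohh TH17 cultures Ep300 measured 114, 101 and 100.5 CPM in WT and 45.7, 52.5 and 37.8 in Dohh-/- libraries. In Odc TH17 cultures it measured 195, 187, 194 and 151 CPM in WT and 117, 92, 77.2 and 107 in Odc-/- libraries. Mutant libraries were below WT libraries in both. The log2 fold changes of Ep300 were -0.66 (SE 0.14, adjusted p = 3.00e-04) in TH1, -0.31 (SE 0.15, adjusted p = 0.0842) in TH2, -0.88 (SE 0.14, adjusted p = 2.48e-05) in TH17 and -0.77 (SE 0.14, adjusted p = 4.52e-05) in Treg for Odc-/- and -0.73 (SE 0.24, adjusted p = 0.0169) in TH1, -0.32 (SE 0.24, adjusted p = 0.297) in TH2, -1.21 (SE 0.25, adjusted p = 4.16e-04) in TH17 and -0.56 (SE 0.24, adjusted p = 0.0583) in Treg for Dohh-/- cells. The Dohh-/- TH1 value was -0.40 (adjusted p = 0.0659) without Dohh-/- replicate 2, which held 30.8 CPM, and -0.63 (adjusted p = 0.0729) without WT replicate 1. Crebbp rose in Odc-/- TH1 (0.33, SE 0.11, adjusted p = 0.0135) and TH2 (0.39, SE 0.12, adjusted p = 0.00766), and its values in Dohh-/- cells, -0.41 in TH1, -0.41 in TH2, -0.25 in TH17 and -0.20 in Treg, did not pass. On leaving out 1 library, the losses were the Odc-/- TH1 pass of Crebbp without WT replicate 4 and the Odc-/- TH2 pass of Crebbp without Odc-/- replicate 2.

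All 3 nuclear receptor coactivators fell in every Dohh-/- subset, whereas in Odc-/- cells only Ncoa3 fell throughout and Ncoa2 passed in Treg alone. These p160 proteins bind hormone receptors and bring p300 and CBP with them. In Dohh TH2 cultures Ncoa3 measured 385, 313 and 335 CPM in WT and 140.5, 118 and 106 in Dohh-/- libraries. TH1 cultures in that table held 165, 164 and 130.2 CPM in WT and 50.9, 46.9 and 70.2 in Dohh-/- libraries. Its Treg libraries held 206, 170.3 and 210.2 CPM in WT and 74.1, 91.4 and 67.6 in Dohh-/- libraries. Dohh-/- libraries were below all WT libraries. In TH17 cultures the values were 152, 139.6 and 157 CPM in WT and 72.8, 69 and 68.4 in Dohh-/- libraries. In Odc TH2 cultures Ncoa3 measured 400.5, 386, 367 and 334 CPM in WT and 176, 203 and 200.4 in Odc-/- libraries. In Odc Treg cultures it measured 249, 233, 240.2 and 214 CPM in WT and 110.5, 114, 85.6 and 127 in Odc-/- libraries. The groups lay apart in these comparisons as well. Odc TH1 libraries held 153, 166, 138 and 136 CPM in WT and 143, 110.4, 115 and 121 in Odc-/- libraries. Odc TH17 libraries held 183, 190.4, 169.9 and 174 CPM in WT and 133, 114, 93 and 134 in Odc-/- libraries. In TH1 the groups overlapped, and the TH1 pass was lost when any 1 of 5 libraries was left out: Odc-/- replicate 2 (adjusted p = 0.126), 3 (0.1) or 4 (0.0747), or WT replicate 1 (0.0674) or 2 (0.136). Log2 fold changes of Ncoa3 were -0.27 (SE 0.11, adjusted p = 0.0404) in TH1, -0.95 (SE 0.12, adjusted p = 9.14e-07) in TH2, -0.60 (SE 0.11, adjusted p = 1.48e-04) in TH17 and -1.10 (SE 0.11, adjusted p = 1.19e-08) in Treg for Odc-/- and -1.45 (SE 0.17, adjusted p = 8.50e-07) in TH1, -1.5 (SE 0.17, adjusted p = 5.46e-07) in TH2, -1.09 (SE 0.16, adjusted p = 1.89e-05) in TH17 and -1.33 (SE 0.17, adjusted p = 1.32e-06) in Treg for Dohh-/- cells.

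Ncoa1 in Dohh-/- cells had log2 fold changes of -1.42 (SE 0.21, adjusted p = 1.91e-05) in TH1, -0.86 (SE 0.21, adjusted p = 0.00252) in TH2, -1.40 (SE 0.21, adjusted p = 1.90e-05) in TH17 and -0.98 (SE 0.21, adjusted p = 6.03e-04) in Treg. In TH1 its mean went from 40.7 ± 4.55 CPM (n = 3) to 15.2 ± 2.80 CPM (n = 3). The Odc-/- values of Ncoa1, -0.27 in TH1, 0.15 in TH2, -0.10 in TH17 and -0.18 in Treg, did not pass. Ncoa2 in Dohh-/- cells had -1.38 (SE 0.31, adjusted p = 9.13e-04) in TH1, -1.13 (SE 0.31, adjusted p = 0.00534) in TH2, -1.42 (SE 0.30, adjusted p = 6.33e-04) in TH17 and -1.32 (SE 0.30, adjusted p = 0.00105) in Treg. In TH17 it went from 86.5 ± 2.77 CPM (n = 3) to 32.3 ± 6.09 CPM (n = 3), and no libraries overlapped. In Odc-/- cells Ncoa2 passed in Treg (-0.39, SE 0.14, adjusted p = 0.0195), a pass lost without Odc-/- replicate 1 or 3 or WT replicate 4, with -0.06, 0.066 and -0.28 in TH1, TH2 and TH17. Of the remaining acetyltransferases, Taf1, the largest TFIID subunit, fell in Odc-/- TH17 (-0.26, SE 0.089, adjusted p = 0.0185) and Treg (-0.54, SE 0.09, adjusted p = 1.26e-05). Clock, the circadian transcription factor, passed in Dohh-/- Treg only (0.57, SE 0.20, adjusted p = 0.0212), and that pass was lost under 5 of 12 alternatives. Passes lost with 1 library fewer were the Odc-/- TH17 pass of Taf1 without Odc-/- replicate 2 or 3 or WT replicate 1 and the Dohh-/- Treg pass of Clock without Dohh-/- replicate 2 or 3 or WT replicate 2 or 3.

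**Figure D3:**
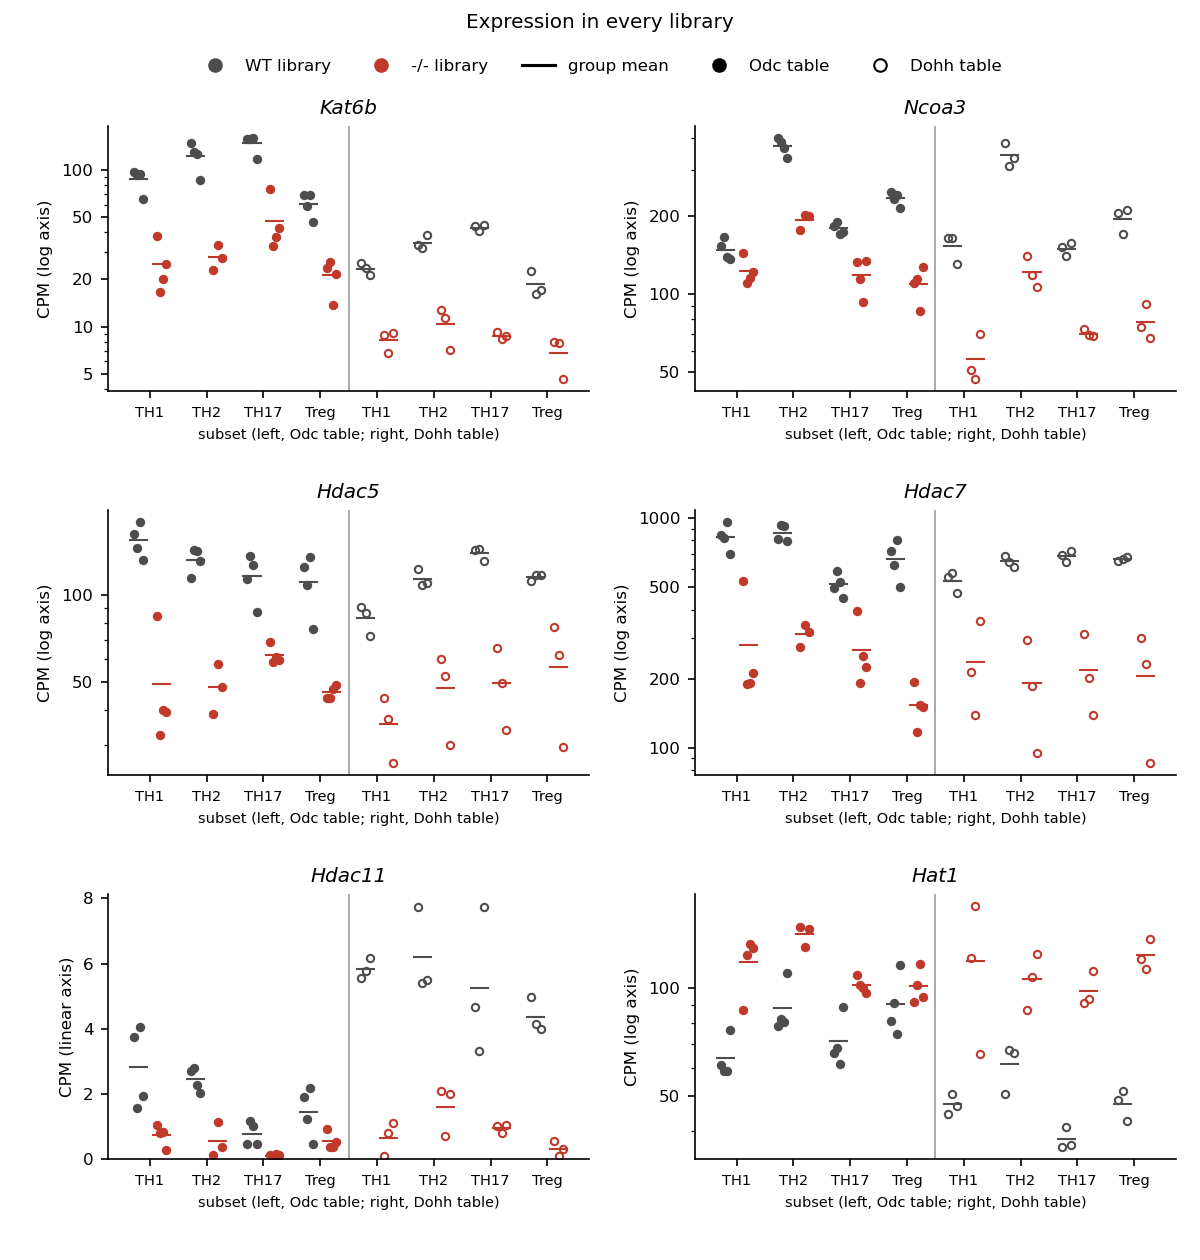
CPM of 6 genes in every library (points; filled, Odc table; open, Dohh table; grey, WT; red, mutant) with the group mean as a bar, on log axes except for Hdac11, which is on a linear axis. Kat6b, Hdac5 and Hdac7 libraries of each mutant lie below the WT libraries of their subset, and Hat1 libraries of Dohh-/- cells lie above them.

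Class IIa HDACs, which carry signals from kinases to MEF2 and other transcription factors, were divided: Hdac5 and Hdac7 fell in all 8 comparisons, Hdac4 in 5 and Hdac9 in none. Hdac7, the most abundant gene of the set per length in WT cells, was below the WT libraries of its subset in every mutant library. In Odc TH1 cultures it measured 845, 816, 960.4 and 697 CPM in WT and 531, 190.2, 192 and 211 in Odc-/- libraries. Odc TH2 cultures held 808, 929, 926 and 796 CPM in WT and 275, 342 and 320.0 in Odc-/- libraries. Odc TH17 cultures held 496, 590.0, 527 and 449.5 CPM in WT and 394, 193, 252 and 225 in Odc-/- libraries. Odc-/- replicate 1 stood above the other mutant libraries in TH1 and TH17, yet below the lowest WT library. In Odc Treg cultures the values were 718, 626, 806 and 504 CPM in WT and 194, 118, 154 and 150.3 in Odc-/- libraries. In the Dohh table, TH1 cultures held 555, 578 and 472 CPM in WT and 214, 139 and 355 in Dohh-/- libraries. Dohh TH2 cultures of Hdac7 held 687, 646 and 611 CPM in WT and 295, 187 and 94.9 in Dohh-/- libraries. Dohh-/- libraries were spread widely in each subset, with replicate 3 nearest WT in TH1 and farthest from WT in TH2, TH17 and Treg. Dohh TH17 libraries held 691, 644 and 719 CPM in WT and 313, 201 and 139 in Dohh-/- libraries. Dohh Treg libraries held 652, 663 and 677 CPM in WT and 302, 232 and 86 in Dohh-/- libraries. Groups did not overlap in any subset of either table. The log2 fold changes of Hdac7 were -1.56 (SE 0.25, adjusted p = 1.83e-05) in TH1, -1.47 (SE 0.28, adjusted p = 7.66e-05) in TH2, -0.96 (SE 0.25, adjusted p = 0.00283) in TH17 and -2.11 (SE 0.26, adjusted p = 1.91e-07) in Treg in Odc-/- cells. In Dohh-/- cells they were -1.18 (SE 0.40, adjusted p = 0.0178) in TH1, -1.75 (SE 0.40, adjusted p = 0.00152) in TH2, -1.65 (SE 0.40, adjusted p = 0.00189) in TH17 and -1.68 (SE 0.40, adjusted p = 0.0015) in Treg. The Dohh-/- TH1 pass was lost without Dohh-/- replicate 1, at -1.09 (adjusted p = 0.064), without replicate 2, at -0.92 (adjusted p = 0.101), without WT replicate 2, at -1.11 (adjusted p = 0.0518), and with no low-count filter. Without Odc-/- TH1 replicate 1 the Odc-/- value was -2.09.

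Hdac5, a class IIa enzyme that also represses MEF2 targets, fell in all 8 comparisons. Odc TH1 cultures held 163, 146, 180.0 and 133 CPM in WT and 84.9, 32.5, 39.8 and 39.2 in Odc-/- libraries. For TH2 the values were 115, 144, 142 and 132 CPM in WT and 38.6, 57.7 and 48.1 in Odc-/- libraries. For Treg they were 125, 109, 136 and 76.1 CPM in WT and 44, 43.9, 47.1 and 48.9 in Odc-/- libraries. Mutant values were below WT values, with TH1 replicate 1 the highest of the Odc-/- libraries. Odc TH17 libraries of Hdac5 held 114, 137, 128 and 87.4 CPM in WT and 68.7, 58.5, 61.1 and 59.3 in Odc-/- libraries. In Dohh TH1 cultures Hdac5 measured 91.3, 86.6 and 71.9 CPM in WT and 43.7, 37.1 and 26 in Dohh-/- libraries. In TH2 it measured 124, 109 and 111 CPM in WT and 60.2, 52.2 and 30.003 in Dohh-/- libraries. No library overlapped the other group. In TH17 it measured 144, 145 and 132 CPM in WT and 65.5, 49.6 and 33.8 in Dohh-/- libraries. In Dohh Treg it measured 112, 118 and 118 CPM in WT and 77.3, 61.8 and 29.7 in Dohh-/- libraries. Log2 fold changes of Hdac5 were -1.67 (SE 0.21, adjusted p = 1.28e-06) in TH1, -1.47 (SE 0.23, adjusted p = 9.87e-06) in TH2, -0.91 (SE 0.21, adjusted p = 8.63e-04) in TH17 and -1.28 (SE 0.21, adjusted p = 1.04e-05) in Treg for Odc-/- and -1.22 (SE 0.29, adjusted p = 0.00134) in TH1, -1.27 (SE 0.28, adjusted p = 0.00116) in TH2, -1.49 (SE 0.28, adjusted p = 2.12e-04) in TH17 and -1.04 (SE 0.28, adjusted p = 0.00383) in Treg for Dohh-/- cells. Leaving out WT TH17 replicate 4 of the Odc table raised the number of genes called lower in Odc-/- TH17 from 2 to 4, as Hdac5 (-1.03) and Hdac7 (-1.02) crossed the 2-fold limit.

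Hdac4, the founding gene of the class, fell in Odc-/- TH2 (-0.44, SE 0.14, adjusted p = 0.0075) and TH17 (-0.75, SE 0.13, adjusted p = 4.21e-05) and in Dohh-/- TH2, TH17 and Treg, with log2 fold changes of -0.90 (SE 0.18, adjusted p = 5.50e-04), -1.20 (SE 0.19, adjusted p = 2.52e-05) and -0.95 (SE 0.19, adjusted p = 2.51e-04). Its Dohh TH17 libraries held 115, 106 and 103 CPM in WT and 44.8, 41.8 and 55 in Dohh-/- libraries. Its TH1 values, 0.044 and -0.24, and its Odc-/- Treg value, -0.18, did not pass. Antisense annotation covers 22.4% of the Hdac4 and 17.9% of the Hdac11 exon bases, and whether counting used strand was not given in the sources used here. Hdac9 held 0 to 21 counts per library and passed in none of the 4 Dohh-/- comparisons in which it was tested.

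Hdac11, the sole class IV enzyme and known in myeloid cells as a regulator of Il10, was called lower in all 8 comparisons but rested on few reads. Odc TH1 libraries held 26, 11, 28 and 13 counts in WT and 7, 6, 6 and 2 in Odc-/- libraries. Odc TH2 libraries held 22, 21, 17 and 14 counts in WT and 1, 9 and 3 in Odc-/- libraries. Odc TH17 libraries held 4, 10, 9 and 4 counts in WT and 1, 0, 1 and 1 in Odc-/- libraries. These groups did not overlap in CPM. Odc Treg libraries held 18, 12, 19 and 4 counts in WT and 7, 3, 3 and 4 in Odc-/- libraries. Dohh TH1 libraries held 67, 58 and 55 counts in WT and 1, 5 and 10 in Dohh-/- libraries. Dohh TH2 libraries held 94, 51 and 49 counts in WT and 20, 7 and 19 in Dohh-/- libraries. Odc Treg was the comparison in which libraries overlapped. Dohh TH17 libraries held 58, 34 and 67 counts in WT and 10, 10 and 7 in Dohh-/- libraries. Dohh Treg libraries held 66, 34 and 47 counts in WT and 5, 1 and 3 in Dohh-/- libraries. Set as summed counts per TMM-scaled depth, WT exceeded Odc-/- by 3.83-fold (2.34 to 6.53) in TH1, 4.39-fold (2.42 to 8.63) in TH2, 7.49-fold (2.31 to 38.6) in TH17 and 2.68-fold (1.53 to 4.94) in Treg, with exact 95% intervals of counting error in parentheses. WT exceeded Dohh-/- by 9.13-fold (5.47 to 16.3) in TH1, 3.98-fold (2.87 to 5.61) in TH2, 5.44-fold (3.60 to 8.52) in TH17 and 14.1-fold (7.22 to 31.4) in Treg. Single libraries moved these differences by over 1.5 times: the log2 fold change went from -2.10 to -3.16 in TH2 without Odc-/- replicate 3, from -3.14 to -3.84 in TH1 without Dohh-/- replicate 3 and from -3.74 to -4.34 in Treg without Dohh-/- replicate 1. Adjusted p-values from edgeR were 0.00123 in TH1, 0.00157 in TH2, 0.00457 in TH17 and 0.0198 in Treg for Odc-/- and 6.15e-05 in TH1, 0.00218 in TH2, 4.00e-04 in TH17 and 1.67e-05 in Treg for Dohh-/- cells. The Odc-/- Treg call was lost without Odc-/- replicate 2 (adjusted p = 0.0587) or 3 (0.0551), or WT replicate 1 (0.0599) or 3 (0.0774). Without Odc-/- replicate 3, Ncoa3 in Odc-/- Treg fell just short of the 2-fold limit at a log2 fold change of -0.997 and the number of genes called lower there went from 5 to 3.

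Class I HDACs, the catalytic cores of the NuRD, Sin3, CoREST and NCoR complexes, changed by less than 2-fold apart from Hdac8. Hdac1 rose in Odc-/- TH1 (0.47, SE 0.11, adjusted p = 6.00e-04), TH2 (0.40, SE 0.11, adjusted p = 0.00402) and TH17 (0.38, SE 0.11, adjusted p = 0.00501), and its Dohh-/- values were 0.20 in TH1, 0.085 in TH2, 0.13 in TH17 and -0.016 in Treg. Hdac2 rose in Odc-/- TH1 and Treg (0.49 and 0.47) and in Dohh-/- TH2, TH17 and Treg (0.55, 0.82 and 0.84). In Dohh-/- Treg it went from 44.1 ± 5.45 CPM (n = 3) to 79.2 ± 18.1 CPM (n = 3). The Odc-/- Treg pass of Hdac2 was lost when only the 2 groups compared were fitted (adjusted p = 0.0653). Hdac3, the enzyme of NCoR and SMRT, fell by a small amount in all 4 Odc-/- subsets, with log2 fold changes of -0.40 (SE 0.064, adjusted p = 1.79e-05) in TH1, -0.37 (SE 0.069, adjusted p = 7.54e-05) in TH2, -0.26 (SE 0.064, adjusted p = 0.00199) in TH17 and -0.30 (SE 0.064, adjusted p = 2.50e-04) in Treg, without overlap of the libraries. Its Dohh-/- values, 0.19 in TH1, -0.057 in TH2, 0.15 in TH17 and 0.09 in Treg, did not pass. Hdac8, a cohesin deacetylase, fell in Odc-/- TH1 (-0.35) and Treg (-0.43) and in Dohh-/- TH17 (-0.71) and Treg (-1.06, SE 0.24, adjusted p = 8.20e-04). The TH1 pass of Hdac8 was lost under 8 of 14 alternatives, among them leaving out Odc-/- replicate 1, 2 or 3 or WT replicate 1, 2 or 3. Further passes lost with 1 library left out were the Odc-/- Treg pass of Hdac8 without WT replicate 2, the Dohh-/- TH17 pass of Hdac8 without Dohh-/- replicate 2 or WT replicate 2 and the Dohh-/- TH2 pass of Hdac2 without WT replicate 1.

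Class IIb enzymes fell in 3 of 4 Dohh-/- subsets. Hdac6, which deacetylates tubulin, fell in Dohh-/- TH1, TH2 and TH17, with log2 fold changes of -0.63 (SE 0.15, adjusted p = 0.00201), -0.67 (SE 0.15, adjusted p = 0.00138) and -0.79 (SE 0.15, adjusted p = 2.42e-04) and had -0.034 (SE 0.15, adjusted p = 0.869) in Treg. In Odc-/- cells it passed in TH1 (-0.35) and TH2 (-0.39). Hdac10, a polyamine deacetylase that acts on acetylated spermidine, fell in Dohh-/- TH1, TH2 and TH17, with log2 fold changes of -0.62 (SE 0.15, adjusted p = 0.00201), -0.66 (SE 0.15, adjusted p = 0.0014) and -0.90 (SE 0.15, adjusted p = 6.16e-05). Dohh TH17 libraries held 40.2, 36.5 and 36.6 CPM in WT and 20.1, 17.5 and 23.3 in Dohh-/- libraries. Odc TH1 libraries of Hdac10 held 20.1, 19.2, 22.1 and 22.4 CPM in WT and 25.7, 32, 22 and 25.8 in Odc-/- libraries. The first pair of groups lay apart and the second overlapped. In Odc-/- cells Hdac10 was higher in TH1 (0.33, SE 0.11, adjusted p = 0.0103) and TH2 (0.27, SE 0.11, adjusted p = 0.0429). The TH2 pass was lost under 11 of 13 alternatives and the TH1 pass under 3 of 14. When only the 2 groups compared were fitted, the Dohh-/- TH1 passes of Hdac6 (adjusted p = 0.0686) and Hdac10 (0.0619) were lost. Single libraries also decided passes: the Odc-/- TH1 pass of Hdac6 without WT replicate 3, the Odc-/- TH1 pass of Hdac10 without Odc-/- replicate 2 and the Odc-/- TH2 pass of Hdac10 without Odc-/- replicate 2 or 3 or WT replicate 1, 2 or 4.

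Among sirtuins, Sirt6 and Sirt5 fell and Sirt1 and Sirt3 rose, each in some subsets. Sirt6, which deacetylates H3 at telomeres and glycolytic genes, passed in 7 of 8 comparisons. In Odc TH2 cultures Sirt6 measured 106, 123, 111 and 99.7 CPM in WT and 36.2, 46.3 and 38.4 in Odc-/- libraries. In Odc TH1 it measured 112, 103, 116 and 85.6 CPM in WT and 59, 32.8, 38.6 and 35.1 in Odc-/- libraries. In Dohh TH17 it measured 62.2, 59.9 and 62.5 CPM in WT and 37.9, 29.6 and 13 in Dohh-/- libraries. These groups did not overlap. Log2 fold changes of Sirt6 were -1.34 (SE 0.14, adjusted p = 1.92e-07) in TH1, -1.45 (SE 0.16, adjusted p = 7.77e-08) in TH2, -0.63 (SE 0.14, adjusted p = 8.03e-04) in TH17 and -0.71 (SE 0.14, adjusted p = 1.35e-04) in Treg for Odc-/- and -0.77 (SE 0.26, adjusted p = 0.0159) in TH1, -0.75 (SE 0.25, adjusted p = 0.0198) in TH2, -1.19 (SE 0.26, adjusted p = 7.15e-04) in TH17 and -0.36 (SE 0.26, adjusted p = 0.25) in Treg for Dohh-/- cells. The Dohh-/- TH1 pass was lost without Dohh-/- replicate 1, and the TH2 pass without Dohh-/- or WT replicate 3. Sirt5, a mitochondrial desuccinylase, fell in Odc-/- TH1, TH2 and TH17 (-0.65, -0.79 and -0.77) and in Dohh-/- TH1 (-1.12, SE 0.21, adjusted p = 2.01e-04) and Treg (-0.92, SE 0.21, adjusted p = 9.73e-04). In Dohh TH1 it measured 16.6, 14.4 and 11.7 CPM in WT and 6.34, 6.00 and 7.28 in Dohh-/- libraries. Its Dohh-/- TH2 and TH17 values were -0.13 and -0.22. Sirt1, the nuclear deacetylase of histones and p53, rose in Odc-/- TH1 (0.64, SE 0.14, adjusted p = 4.12e-04), TH2 (0.52, SE 0.15, adjusted p = 0.00457) and Treg (0.40, SE 0.13, adjusted p = 0.0122) and passed in no Dohh-/- subset. Sirt3, the main mitochondrial deacetylase, rose in Dohh-/- TH1, TH2 and Treg (0.57, 0.50 and 0.69), and these passes were lost under 5, 6 and 1 of 12 alternatives. Sirt4, a mitochondrial sirtuin, fell in Odc-/- TH1, TH2 and TH17 (-0.48, -0.70 and -0.40) and in Dohh-/- TH17 (-0.99). Sirt2, a cytosolic deacetylase, fell in Odc-/- TH1 and TH17 (-0.18 and -0.22) and Dohh-/- TH17 (-0.77, SE 0.18, adjusted p = 0.00127). Sirt7, a nucleolar sirtuin, passed in Odc-/- TH2 only (-0.41, SE 0.11, adjusted p = 0.00208). Lost when 1 library was left out were the Odc-/- Treg pass of Sirt1 without Odc-/- replicate 2, the Odc-/- TH1 pass of Sirt2 without Odc-/- replicate 2 or 4 or WT replicate 1 or 3, the Dohh-/- TH1 pass of Sirt3 without Dohh-/- replicate 1 or WT replicate 2 or 3, the Dohh-/- TH2 pass of Sirt3 without Dohh-/- replicate 1 or 2 or WT replicate 1, 2 or 3, the Dohh-/- Treg pass of Sirt3 without Dohh-/- replicate 1 and the Odc-/- TH17 pass of Sirt4 without Odc-/- replicate 4.

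The BET readers were not called in any comparison. Brd2 rose in Odc-/- TH1 (0.48, SE 0.10, adjusted p = 2.12e-04) and TH2 (0.51, SE 0.11, adjusted p = 1.80e-04). Its Odc TH1 libraries held 221, 232, 213 and 259.8 CPM in WT and 287, 332, 329.9 and 341 in Odc-/- libraries. The groups did not overlap. Its Dohh-/- values, 0.28 in TH1, -0.14 in TH2, -0.24 in TH17 and 0.21 in Treg, did not pass. Brd3 rose in Odc-/- TH1 (0.53, SE 0.13, adjusted p = 0.00114) and fell in Dohh-/- TH2 (-0.74, SE 0.13, adjusted p = 8.43e-05), TH17 (-0.37, SE 0.13, adjusted p = 0.0182) and Treg (-0.68, SE 0.13, adjusted p = 1.37e-04). In Dohh TH2 cultures Brd3 measured 54.2, 49.3 and 56.2 CPM in WT and 32.2, 31.3 and 31.9 in Dohh-/- libraries. The TH17 pass of Brd3 was lost under 6 of 12 alternatives. Leaving out 1 library ended the Dohh-/- TH17 pass of Brd3 without Dohh-/- replicate 2 or 3 or WT replicate 1 or 2.

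The size of the Odc effect differed between subsets for 9 of 36 genes (a quasi-likelihood F test of the interaction, where 34.8% of all genes passed), and of the Dohh effect for 2 of 36, against 17.9% of all genes. Brd2 in Odc-/- cells (adjusted p = 6.60e-04) was higher in TH1 and TH2 while TH17 and Treg had -0.19 and 0.10. For Ncoa3 (adjusted p = 9.30e-04), the fall ranged from -0.27 in TH1 to -1.10 in Treg. For Sirt6 (adjusted p = 0.00271), the TH1 and TH2 falls, -1.34 and -1.45, were larger than those of TH17 and Treg, -0.63 and -0.71. The others in Odc-/- cells were Sirt1 (adjusted p = 0.00436), Hdac4 (0.00574), Taf1 (0.0137), Kat6a (0.0163), Hat1 (0.0318) and Sirt7 (0.0392). Those in Dohh-/- cells were Sirt5 (adjusted p = 0.034) and Hdac6 (0.0498). None of Kat6b, Hdac5, Hdac7 and Hdac11 passed this test in either table. With same-numbered libraries of 1 genotype taken as 1 donor (donor replicate block), the Odc count was 18 of 36, where 52.9% of all genes passed in the same fit, and the Dohh count 3 of 36, against 19.0% of all genes, and Hdac7 (adjusted p = 3.01e-05) and Hdac5 (0.0308) were among the genes that passed for Odc, whereas Kat6b (0.311) and Hdac11 (0.546) were not. Without that block, the Odc count was 2 without the libraries numbered 2 and 4 without those numbered 3, and the Dohh count was 0, 0 and 1 without those numbered 1, 2 and 3. With no low-count filter the Dohh count was also 0. In the main fit, with the filter, 6 genes had an unadjusted p below 0.05 in the F test for Dohh.

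The Odc and Dohh effects were then set against each other in a joint fit of both tables, as the Dohh-/- minus WT change less the Odc-/- minus WT change. The WT libraries are separate, so the comparisons share no controls, but the tables differ in mouse line, may differ in how reads were counted, and each effect was taken within its table. Of 35 genes tested in both, 9 differed in TH1, 10 in TH2, 8 in TH17 and 10 in Treg, where 18.5%, 15.7%, 21.4% and 26.2% of all genes differed. Ncoa1 and Ncoa2 differed in every subset. On the log2 scale this difference for Ncoa1 was -1.12 (SE 0.23, adjusted p = 5.08e-04) in TH1, -1.03 (SE 0.24, adjusted p = 0.00212) in TH2, -1.25 (SE 0.23, adjusted p = 7.88e-05) in TH17 and -0.76 (SE 0.23, adjusted p = 0.0109) in Treg. For Ncoa2 the differences were -1.30 (SE 0.32, adjusted p = 0.00291) in TH1, -1.21 (SE 0.33, adjusted p = 0.008) in TH2, -1.08 (SE 0.31, adjusted p = 0.00954) in TH17 and -0.89 (SE 0.31, adjusted p = 0.0275) in Treg. Ncoa3 differed in TH1 (-1.16, SE 0.19, adjusted p = 2.49e-05) and TH2 (-0.57, SE 0.20, adjusted p = 0.0382). Hdac10 differed in TH1, TH2 and TH17, by -0.93 (SE 0.18, adjusted p = 1.71e-04), -0.94 (SE 0.18, adjusted p = 1.95e-04) and -0.87 (SE 0.18, adjusted p = 3.03e-04), and Brd3 in TH1, TH2 and Treg, by -0.75 (SE 0.17, adjusted p = 0.00191), -1.03 (SE 0.18, adjusted p = 5.86e-05) and -0.64 (SE 0.17, adjusted p = 0.00403). Hdac3, lower in Odc-/- cells and not past the adjusted p in Dohh-/- cells, differed in TH1, TH17 and Treg by 0.60 (SE 0.12, adjusted p = 2.51e-04), 0.45 (SE 0.12, adjusted p = 0.00407) and 0.43 (SE 0.12, adjusted p = 0.00457).

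Hat1 rose more in Dohh-/- than in Odc-/- TH17 (0.91, SE 0.26, adjusted p = 0.00886) and Treg (1.26, SE 0.26, adjusted p = 2.06e-04). Crebbp, higher in Odc-/- cells, differed in TH1 (-0.72, SE 0.19, adjusted p = 0.00665) and TH2 (-0.81, SE 0.20, adjusted p = 0.0035). Kat2b fell more in Dohh-/- TH1 (-0.79, SE 0.28, adjusted p = 0.0381) and Treg (-0.96, SE 0.27, adjusted p = 0.00572). Hdac11 differed in Treg (-2.30, SE 0.81, adjusted p = 0.0295), but its Odc-/- Treg libraries held 17 counts in all, near the floor of 3 each. A fall as large as that in Dohh-/- Treg (14.1-fold, against 2.68-fold in Odc-/- Treg) could not be resolved there. For Hdac11 this test therefore cannot decide whether the effects differ in size. Kat6b, Hdac5 and Hdac7, lower in both mutants, did not pass this test in any subset: their differences ranged from Kat6b -0.58 to 0.40, Hdac5 -0.53 to 0.46 and Hdac7 -0.65 to 0.47, with standard errors of 0.35 to 0.48, which does not show that the effects were equal. The counts fell to as few as 5, 5, 5 and 4 in TH1, TH2, TH17 and Treg when the libraries of 1 number were left out: without number 2 TH1 gave 5, without numbers 1, 2 and 4 TH2 gave 5, 6 and 6, without numbers 1 and 2 TH17 gave 5 and 5, and without numbers 1, 2 and 3 Treg gave 4, 6 and 6.

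**Figure D4:**
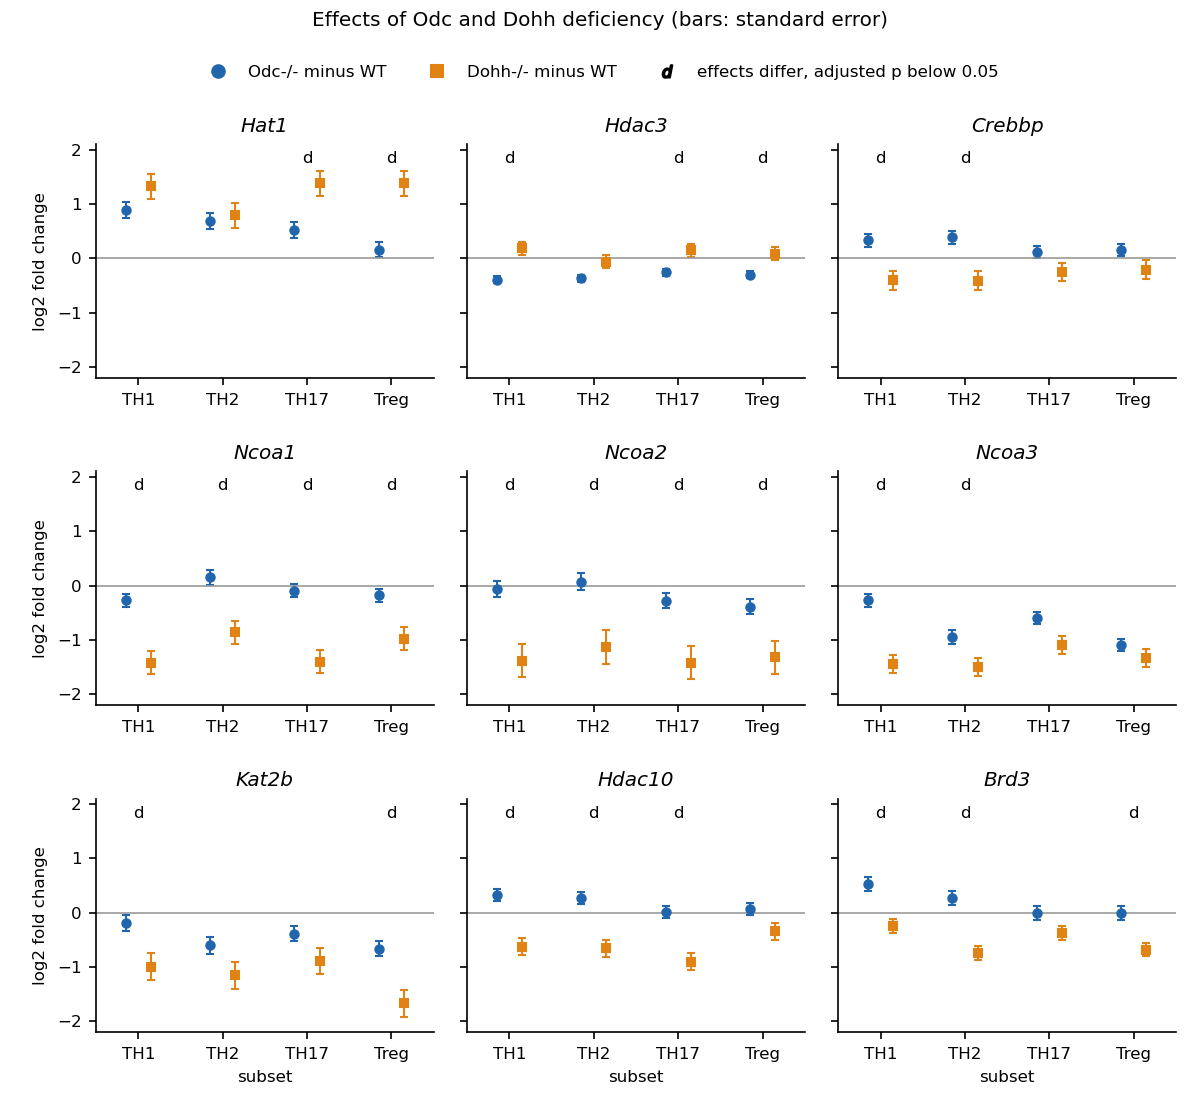
Log2 fold change with its standard error for 9 genes in Odc-/- (blue circles) and Dohh-/- (orange squares) cells of each subset, against WT cells of the same table. The letter d marks a difference between the effects with an adjusted p below 0.05. The orange squares of Ncoa1 and Ncoa2 lie below the blue circles in all 4 subsets, and those of Hat1 lie above in TH17 and Treg.

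In WT cells the genes spanned a wide range of expression per length, computed as RPKM (CPM per kilobase of union exon) and set side by side only within a table. Hdac7 was highest, at a mean over subsets of 106 RPKM in the Odc and 93.7 RPKM in the Dohh table, ahead of Hdac1 (46.8 and 48.4 RPKM) and Brd2 (33.4 and 26.8 RPKM). Ncoa3, Sirt6 and Hat1 had 29.6, 29.7 and 27.2 RPKM in the Odc table. Ep300 (11.2 and 6.42 RPKM) exceeded Crebbp (4.12 and 2.29 RPKM). Kat6b had 6.24 and 1.77, Hdac11 0.488 and 1.41 and Hdac9 0.0181 and 0.0297 RPKM.

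Levels differed between the 4 WT subsets for 31 of 36 genes in the Odc table (71.1% of all genes) and 12 of 36 in the Dohh table (40.1%), and 11 genes passed in both: Clock, Hdac2, Hdac4, Hdac8, Kat2b, Kat6b, Ncoa1, Ncoa2, Ncoa3, Sirt4 and Sirt6. The Dohh count was 3 when all libraries numbered 1, and 5 when all numbered 2, were left out. Ncoa3 was highest in TH2, at 47.1 ± 3.64 RPKM (SD, n = 4), against 18.8 ± 1.74 in TH1, 22.7 ± 1.15 in TH17 and 29.6 ± 1.86 in Treg of the Odc table. Dohh WT libraries had 43.6 ± 4.63 RPKM in TH2 (n = 3) against 19.4 ± 2.52, 18.9 ± 1.11 and 24.7 ± 2.76 in TH1, TH17 and Treg. The adjusted p from edgeR was 1.44e-10 and 3.80e-06. Kat6b ran in the order TH17, TH2, TH1 and Treg in both tables, at 8.80 ± 1.20, 7.33 ± 1.57, 5.20 ± 0.905 and 3.62 ± 0.648 RPKM in the Odc table and 2.55 ± 0.118, 2.04 ± 0.215, 1.39 ± 0.123 and 1.11 ± 0.203 RPKM in the Dohh table (adjusted p = 1.85e-04 and 2.44e-04). Of neighbours in this order, the mean ± SD of TH17 and TH2 and of TH2 and TH1 overlapped in the Odc table, and that of TH1 and Treg in the Dohh table. Hdac4 was highest in TH17, 7.29 ± 0.962 and 6.83 ± 0.403 RPKM, and lowest in TH1, 2.94 ± 0.0719 and 3.03 ± 0.360 RPKM, where it overlapped Treg within 1 SD in the Dohh table. Sirt6 was highest in TH2 and lowest in Treg in both tables, with a ratio of these means of 2.08 and 1.88. In the Odc table Sirt6 of TH2 (39.4 ± 3.55 RPKM) overlapped TH1 (37.5 ± 4.90 RPKM), and TH17 (23 ± 2.69 RPKM) overlapped Treg (18.9 ± 1.77 RPKM). In the Dohh table TH1 and TH17 overlapped (22.2 ± 0.917 and 22.1 ± 0.512 RPKM).

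**Figure D5:**
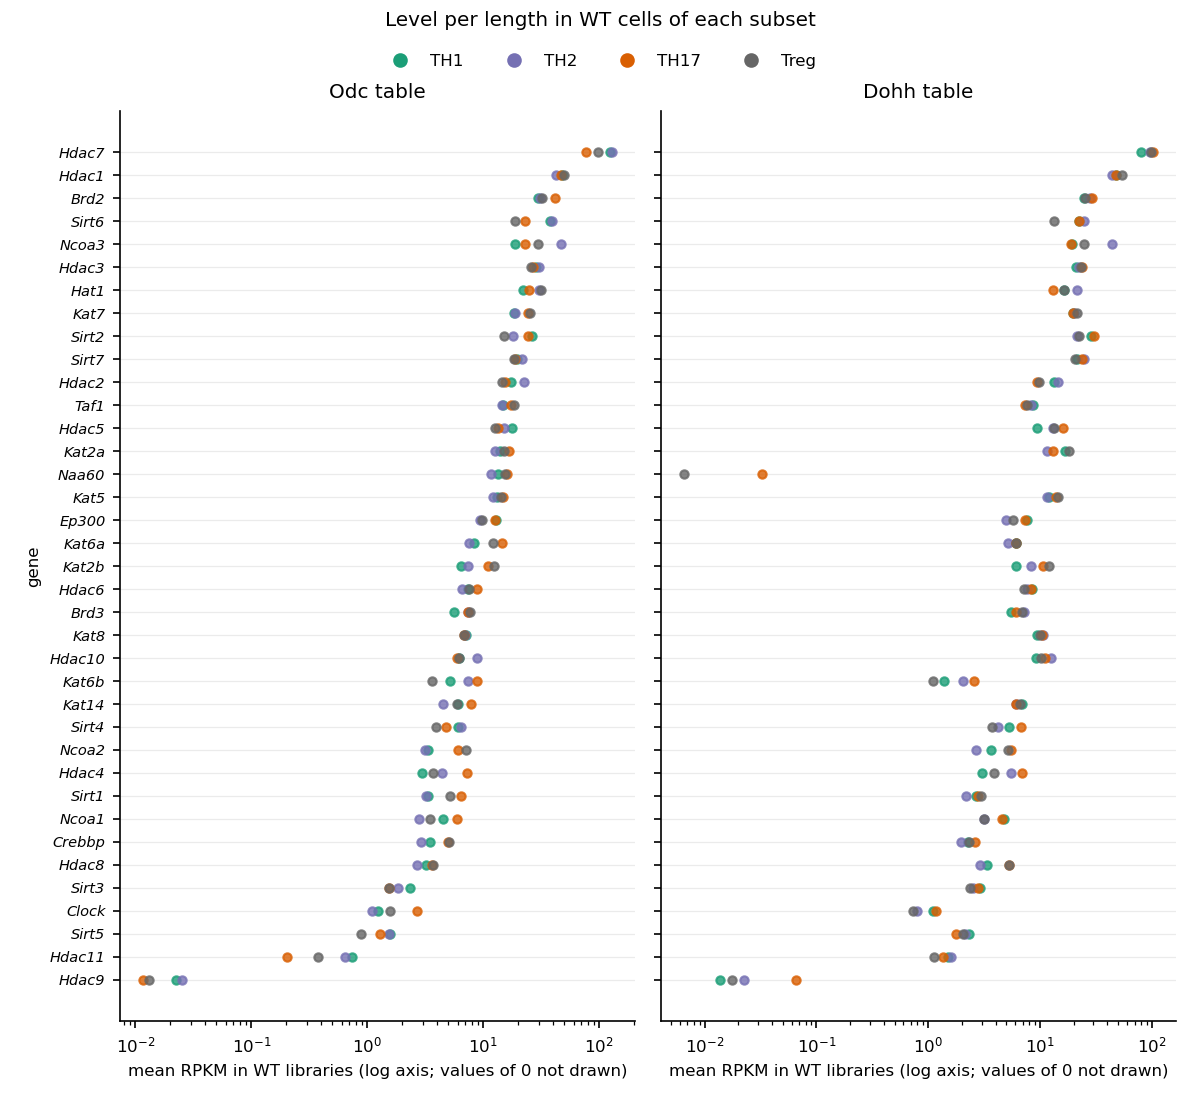
Mean RPKM of each gene in WT libraries of the Odc (left) and Dohh (right) table on a log axis, with 1 point per subset and genes ordered by their mean in the Odc table. Hdac7 is the highest gene in both panels, and Hdac9 and, in the Dohh table, Naa60 are the lowest.

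Genes that work with these enzymes were counted in the same way, from lists of complex subunits and pathway genes, with ranges over the 4 subsets. Of all genes, 8.35% to 13.9% were called higher and 7.21% to 13.6% lower in Odc-/- subsets, and 14.3% to 17.5% and 11.6% to 15.2% in Dohh-/- subsets. Of 40 HDAC corepressor subunits, 0 to 1 were called higher and 1 to 4 lower in Odc-/- subsets, and 1 to 3 and 5 to 6 in Dohh-/- subsets, with medians of -0.24 to 0.00055 in Odc-/- and -0.39 to -0.17 in Dohh-/- cells. The share of subunits called lower, 2.5% to 10% and 12.5% to 15%, was below that of all genes in each Odc-/- subset and near it in Dohh-/- subsets. Zmym3 and Rcor2, CoREST-type subunits, were called lower in 5 comparisons each, with log2 fold changes over all 8 of -1.72 to -0.66 and -1.90 to 0.22, and Ncor1, the corepressor that binds Hdac3, in the 4 Dohh-/- comparisons (-1.44 to -0.18 over all 8). Of 19 SAGA and ATAC subunits, 0 to 1 were called higher and 0 to 1 lower in Odc-/- subsets, and 1 to 2 and 1 to 2 in Dohh-/- subsets, with medians of 0.04 to 0.14 in Odc-/- and -0.20 to -0.0022 in Dohh-/- cells. Tada2a was called higher 4 times and Trrap, a scaffold of SAGA and TIP60, lower 4 times, with ranges of 0.28 to 1.61 and -1.63 to -0.35. Among 31 MYST complex subunits, 0 to 2 were called higher and 0 to 1 lower in Odc-/- subsets, and 0 to 3 and 1 to 3 in Dohh-/- subsets, with medians of 0.04 to 0.20 in Odc-/- and -0.10 to 0.064 in Dohh-/- cells. Both lists had smaller shares called than all genes in each direction and subset. Ruvbl1, an ATPase of the TIP60 complex, was called higher 5 times (0.56 to 1.26). Among 20 other acetyl-lysine readers, 0 to 1 were called higher and 0 to 1 lower in Odc-/- subsets, and 0 and 3 to 4 in Dohh-/- subsets, with medians of -0.32 to -0.047 in Odc-/- and -0.49 to -0.26 in Dohh-/- cells. Their share called lower in Dohh-/- subsets was 15% to 20%, above that of all genes in 3 of 4 subsets. Mllt3, Zmynd11 and Baz2a were each called lower 4 times, with lowest log2 fold changes of -2.23, -1.51 and -1.41.

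Of 10 class IIa HDAC partners and kinases, 0 to 1 were called higher and 0 to 1 lower in Odc-/- subsets, and 0 to 1 and 0 to 2 in Dohh-/- subsets, with medians of -0.049 to 0.40 in Odc-/- and -0.55 to -0.26 in Dohh-/- cells. That is at most 2 of 10 genes in a direction, and no more than the share of all genes except for lower calls in 1 Dohh-/- subset. Mef2c was called higher 5 times, from low counts, with log2 fold changes of 0.82 to 7.11. NAD supply, on which sirtuins depend, was represented by 12 genes, of which 1 to 2 were called higher and 1 to 3 lower in Odc-/- subsets, and 1 to 3 and 1 to 2 in Dohh-/- subsets, with medians of -0.30 to -0.03 in Odc-/- and -0.38 to 0.06 in Dohh-/- cells. These shares, 8.33% to 16.7% higher and 8.33% to 25% lower in Odc-/- and 8.33% to 25% and 8.33% to 16.7% in Dohh-/- subsets, rest on 1 to 3 genes each and span those of all genes. Qprt, which makes nicotinic acid mononucleotide from quinolinate, was called lower in all 8 comparisons (-2.53 to -1.30). Bst1, an ectoenzyme that consumes NAD, was called higher in 6 comparisons and lower in 1 (-1.28 to 4.95). Nnt, a mitochondrial transhydrogenase, was called higher in the 4 Odc-/- comparisons (-0.88 to 1.53 over all 8). The Nnt annotation overlaps another gene entry on the same strand over 47.45% of its exon bases, so its reads are less certain. Of 20 cell cycle genes, 0 to 5 were called higher and 0 to 2 lower in Odc-/- subsets, and 4 to 13 and 0 in Dohh-/- subsets, with medians of 0.004 to 0.59 in Odc-/- and 0.43 to 1.35 in Dohh-/- cells. The share called higher, 20% to 65%, lay above that of all genes in all 4 Dohh-/- subsets and, at 0% to 25%, in 2 of 4 Odc-/- subsets. Tyms and Rrm2, which supply nucleotides, and the replication licensing genes Mcm5 and Mcm2 were called higher in 7, 6, 5 and 4 comparisons, with highest log2 fold changes of 2.91, 2.49, 1.96 and 2.11. The summed level of the list was 2295 to 2846 CPM in WT and 3160.3 to 6405 CPM in Dohh-/- libraries, where Hat1 was called higher in 3 subsets, and its part in the Hat1 result was not tested.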

How the data were processed

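The deposited tables held raw gene counts that the authors made from TruSeq stranded mRNA libraries with STAR, featureCounts and the mm10 build, as the submitters' processing notes name them without versions. Counting options and annotation were not given in the sources used here. Rows are gene identifiers of GENCODE M21 form, and each of the 2 tables, 31 Odc and 24 Dohh libraries, was filtered and fitted alone. The members and lists were chosen with earlier results of these data known.

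Genes with enough counts for the 8 groups (filterByExpr) were kept, 13839 and 13897 genes, library sizes were scaled by TMM, and edgeR 4.0.16 in R 4.3.3 fitted a robust quasi-likelihood model with 1 mean per group. Mutant minus WT was tested in each subset, p-values were adjusted over all genes tested by Benjamini-Hochberg, and the study's thresholds, adjusted p below 0.05 and fold change above 2, defined a call. Interaction tests, WT subset tests and the difference between the Odc and Dohh effects (a joint fit of 14850 genes) were F tests or contrasts of the same kind. CPM is counts over the scaled library size, and RPKM divides CPM by the union exon length. Replicates were compared by chi-square over genes, and the lowest value per degree of freedom, 2.61, left no pair alike. The script was tested on simulated data. Intervals and floors cover counting error only, since reads carry no molecular identifiers.

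All 37 members are reported. Of the partner lists, the genes named were called in the same direction in at least 4 of 8 comparisons, at most 4 per list, largest mean change first. Alternatives were DESeq2 1.42.0, its size factors, no filter on low counts, a mean count of at least 50, a fit of only the 2 groups compared, a replicate block and leaving out each library. Promoter sequences came from RefSeq (GRCm38.p6), in which 31 of 37 members had an entry, and Hdac10, Hdac1, Kat6a, Ncoa3, Ncoa2 and Hdac3 had none.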

Additional observations from a re-analysis of the deposited data

Results flagged for a closer look

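A library far from the others of its group was sought in groups of 4 libraries, which only the Odc table has, by Dixon's criterion. It marked 21 of 259 gene and group combinations, and chance marks about 1 in 20. Odc WT replicate 4 accounted for 9: Kat2a in Odc WT TH17 replicate 4 (74.2 CPM, others 52.6 to 54.4), Hat1 in Odc WT TH1 replicate 4 (76.5 CPM, others 58.9 to 61.1) and Hat1 in Odc WT TH2 replicate 4 (110.4 CPM, others 78.5 to 82.2). Further cases were Kat14 in Odc WT TH17 replicate 4 (40.2 CPM, others 35.1 to 35.7), Kat14 in Odc WT Treg replicate 4 (41.7 CPM, others 21.7 to 24.4) and Kat6b in Odc WT TH1 replicate 4 (64.8 CPM, others 93.3 to 97.5). The last were Kat6b in Odc WT TH17 replicate 4 (118 CPM, others 156 to 159.5), Hdac2 in Odc WT TH1 replicate 4 (98.9 CPM, others 67.6 to 72.7) and Sirt1 in Odc WT TH1 replicate 4 (19.5 CPM, others 17.2 to 17.4). Odc-/- replicate 1 accounted for 6: Ep300 in Odc-/- TH1 replicate 1 (145 CPM, others 105 to 111), Hdac2 in Odc-/- TH1 replicate 1 (80.6 CPM, others 116 to 123) and Hdac5 in Odc-/- TH1 replicate 1 (84.9 CPM, others 32.5 to 39.8). The others were Hdac7 in Odc-/- TH1 replicate 1 (531 CPM, others 190.2 to 211), Hdac9 in Odc-/- Treg replicate 1 (1.72 CPM, others 0.261 to 0.482) and Hdac6 in Odc-/- TH17 replicate 1 (37.2 CPM, others 52.4 to 54.1). The remaining cases lay in other libraries. They included Kat2b in Odc-/- TH1 replicate 4 (30.8 CPM, others 26.1 to 26.7), Kat5 in Odc WT TH2 replicate 2 (49 CPM, others 40.5 to 41.7) and Clock in Odc WT TH2 replicate 1 (18.7 CPM, others 13.9 to 14). They also included Hdac8 in Odc-/- TH1 replicate 4 (15.1 CPM, others 11.1 to 11.4), Hdac8 in Odc-/- TH17 replicate 2 (17.6 CPM, others 13.4 to 13.9) and Sirt4 in Odc WT TH2 replicate 2 (18 CPM, others 14.4 to 15).

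The Odc effect differed between subsets, by the interaction test of edgeR, for Brd2 (adjusted p = 6.60e-04), Ncoa3 (adjusted p = 9.30e-04), Sirt6 (adjusted p = 0.00271), Sirt1 (adjusted p = 0.00436), Hdac4 (adjusted p = 0.00574), Taf1 (adjusted p = 0.0137), Kat6a (adjusted p = 0.0163), Hat1 (adjusted p = 0.0318) and Sirt7 (adjusted p = 0.0392). The Dohh effect differed for Sirt5 (adjusted p = 0.034) and Hdac6 (adjusted p = 0.0498).

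In TH1, the Dohh effect less the Odc effect (log2, adjusted p below 0.05 by edgeR) was -0.72 for Crebbp, -0.79 for Kat2b, -1.12 for Ncoa1, -1.30 for Ncoa2, -1.16 for Ncoa3, 0.60 for Hdac3, -0.93 for Hdac10, 0.77 for Sirt3 and -0.75 for Brd3. In TH2 it was -0.81 for Crebbp, -0.90 for Kat6a, -0.59 for Kat7, -1.03 for Ncoa1, -1.21 for Ncoa2, -0.57 for Ncoa3, -0.94 for Hdac10, 0.48 for Sirt7, -0.67 for Brd2 and -1.03 for Brd3. TH17 had 0.91 for Hat1, -0.54 for Kat7, -1.25 for Ncoa1, -1.08 for Ncoa2, 0.45 for Hdac3, -0.70 for Hdac6, -0.87 for Hdac10 and -0.50 for Sirt2. Treg had -0.96 for Kat2b, 1.26 for Hat1, -0.76 for Ncoa1, -0.89 for Ncoa2, 0.64 for Taf1, 0.43 for Hdac3, -0.73 for Hdac4, -2.30 for Hdac11, 0.81 for Sirt3 and -0.64 for Brd3. These 37 differences between the mutants were marked because the difference itself passed the test. That of Hdac11 in Treg is limited by Odc-/- counts near the floor.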

How the results depend on the processing

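Over the alternatives, no gene's called change reversed direction: of 3691 alternative values of single genes, 3475 kept their side of the threshold, 85 came to pass and 131 no longer passed. Of 162 passes, 123 were kept under every alternative and 39 were lost under at least 1, 17 of them only when a library was left out. The 2 genes called in Odc-/- TH17 became 1 with a mean count of at least 50 and 1 with only the 2 groups compared, by construction, since Hdac11 was not tested in either. Genes past the adjusted p in Dohh-/- TH1 fell from 18 to 10 when only those 2 groups were fitted. The passes lost there were those of Ep300, Kat2a, Kat2b, Kat14, Kat7, Hdac6, Hdac10 and Sirt3. With no low-count filter, genes whose Dohh effect differs between subsets went from 2 to 0, and genes whose effects differ between Odc and Dohh in TH17 from 8 to 5. For these last 3 changes the cause was not tested.

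Leaving out libraries gave 5 to 5, 5 to 6, 2 to 4 and 3 to 5 called genes in Odc-/- TH1, TH2, TH17 and Treg, and 7 to 11, 5 to 9, 11 to 13 and 7 to 12 in Dohh-/- cells. Past the adjusted p alone these were 20 to 24, 20 to 23, 17 to 20 and 17 to 23, and 14 to 23, 18 to 20, 19 to 22 and 16 to 18. Genes whose effect differs between subsets numbered 2 to 11 for Odc and 0 to 1 for Dohh, and genes that differ between WT subsets 24 to 30 and 3 to 12. Genes whose effects differ between Odc and Dohh numbered 5 to 10, 5 to 10, 5 to 6 and 4 to 7 in TH1, TH2, TH17 and Treg. Where this left fewer libraries, the power of the test was lower by construction.

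Same-numbered WT and mutant libraries of a subset had deviations with a median correlation over genes of 0.0066 in the Odc and -0.012 in the Dohh table, over 0.1 in 7 of 15 and 1 of 12 pairs (differently numbered, 9 of 45 and 1 of 24). Since not every pair was over 0.1, they were not treated as pairs. Same-numbered libraries of 1 genotype in different subsets had a correlation over 0.1 in 44 of 45 and 28 of 36 pairs. With the number as a replicate block, 278 of 288 gene values kept their side, 8 came to pass and 2 no longer passed. The block gave 5, 5, 3 and 5 called genes in Odc-/- and 10, 7, 12 and 9 in Dohh-/- subsets. With numbers taken as donors within each genotype (donor replicate block), genes whose Odc effect differs between subsets went from 9 to 18 of 36, and over all genes from 34.8% to 52.9%. Under the same block, genes that differ between WT subsets went from 31 to 33 in the Odc and from 12 to 14 in the Dohh table. Depth limits what can be said of Hdac9, of Naa60 in the Dohh table and of Hdac11 in mutant libraries, with counts at or near the floor of 3.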
